A study of Mus musculus with 6 samples.

Results

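Transcripts of 10 genes of the endothelial cell-cell junction were compared between knockout and control cells: the cadherin genes Cdh5, Cdh2 and Cdh13, the catenin genes Ctnnb1, Ctnna1, Ctnnd1 and Jup, and the immunoglobulin-type adhesion genes Pecam1, Esam and F11r. They were chosen by name, as genes of the adherens junction and of homophilic adhesion, and include the genes of both proteins on which the cells were sorted. All 10 were among the 52636 gene identifiers of the count table and all 10 passed the filter on low counts, which left 13901 genes for testing. Knockout cells carried a double deletion of Erg and Fli1, which encode ETS-family transcription factors, and control cells were wild type. Endothelial cells from mouse brain were cultured, and both groups received 4-OHT (4-hydroxytamoxifen) to induce gene deletion. Living cells were then sorted as CD45 negative, CD31 positive and VE-cadherin positive, and 3 libraries of polyadenylated RNA were sequenced per group. The labels give no Cre driver, age or number of animals, and do not say whether the libraries came from separate cultures, so p-values measure only the spread between these libraries, which may be partly technical.

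At an adherens junction, the outer parts of cadherins on neighbouring cells bind each other, and the cadherin tail inside the cell holds catenins that tie it to actin. VE-cadherin (Cdh5) is the classical cadherin of endothelial junctions. beta-catenin (Ctnnb1) and plakoglobin (Jup) compete for the same part of the tail, alpha-catenin (Ctnna1) links them to actin, and p120-catenin (Ctnnd1) binds nearer the membrane and slows removal of the cadherin from the surface. CD31 (Pecam1), ESAM and JAM-A (F11r) are immunoglobulin-type proteins that also concentrate where endothelial cells meet.

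The start regions of 3 catenin genes are shown because both deleted factors belong to the ETS family, whose members bind DNA around the core GGAA, and because Jup fell, Ctnnb1 did not pass the test and Ctnnd1 rose in the knockout (values are given with each gene). RefSeq start windows of the build GRCm38.p6, running from 250 bases before to 50 bases after an annotated start, were on hand for 4 of the 10 genes (Jup, Ctnnb1, Ctnnd1 and F11r). Capitals mark GGAA, or TTCC where the core lies on the other strand. The windows are chr11:100397741-100398040 on the minus strand for Jup, chr9:120933150-120933449 on the plus strand for Ctnnb1 and chr2:84650691-84650990 on the minus strand for Ctnnd1, each written 5′ to 3′.
Jup: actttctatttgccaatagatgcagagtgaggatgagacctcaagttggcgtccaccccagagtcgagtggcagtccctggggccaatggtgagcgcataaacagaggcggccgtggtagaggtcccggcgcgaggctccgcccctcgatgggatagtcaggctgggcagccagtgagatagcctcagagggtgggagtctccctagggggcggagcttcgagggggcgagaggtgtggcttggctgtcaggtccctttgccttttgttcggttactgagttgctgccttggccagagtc
Ctnnb1: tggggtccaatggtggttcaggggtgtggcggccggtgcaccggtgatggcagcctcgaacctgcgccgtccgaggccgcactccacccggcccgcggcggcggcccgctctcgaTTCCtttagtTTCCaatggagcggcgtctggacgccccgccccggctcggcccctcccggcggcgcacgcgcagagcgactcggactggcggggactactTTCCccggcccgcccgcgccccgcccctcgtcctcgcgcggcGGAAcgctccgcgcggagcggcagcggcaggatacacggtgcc
Ctnnd1: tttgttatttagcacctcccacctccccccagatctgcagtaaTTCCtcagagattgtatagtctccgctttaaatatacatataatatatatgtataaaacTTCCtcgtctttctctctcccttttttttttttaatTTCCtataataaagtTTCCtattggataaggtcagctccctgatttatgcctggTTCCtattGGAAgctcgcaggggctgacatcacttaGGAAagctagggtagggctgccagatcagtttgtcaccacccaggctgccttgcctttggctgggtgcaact
The Jup window held 0 copies of GGAA on either strand, the Ctnnb1 window 4 and the Ctnnd1 window 7, and 96.0% of the 32851 start windows in the table held at least 1, with a median of 3. The longer strings AGGAAG and CCGGAA, read on both strands and each containing the core, were in 35.4% and 14.9% of all windows. The Ctnnd1 window had AGGAAG in 1 place and CCGGAA in 0 places, and the other 2 windows had neither. Ctnnb1 and Ctnnd1 each have another annotated start, with 2 and 4 copies of the core. The other Ctnnd1 window, chr2:84658928-84659227, had AGGAAG in 2 places and CCGGAA in 1, and that of Ctnnb1 had neither. The F11r window, not printed here, held 4 copies of the core and neither longer string. The 3 printed genes were picked by the direction of their change, so these counts cannot test a relation to it. A string match describes the letters of a window and says nothing of binding.

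The libraries held 17274639 to 19410458 counts. All 13 endothelial marker genes examined averaged at least 5 CPM in both groups (CPM, counts scaled to a common library total adjusted by TMM). Their summed level was 2493, 2487 and 2955 CPM in knockouts 1, 2 and 3, against 9058, 3982 and 8596 CPM in controls 1, 2 and 3. Most of this knockout sum was Eng, with 1383, 1391 and 1508 CPM in knockouts against 1933, 594 and 1728 CPM in controls. Eng did not pass the test (log2 fold change 0.009, edgeR adjusted p = 0.991). Of the 13 markers, 11 were called lower and 0 higher, where 11.7% of all genes were lower and 13.1% higher. The summed level of 8 fibroblast markers was 1645 to 2863 CPM in knockouts, and 407, 12310 and 1093 CPM in controls 1, 2 and 3. Most of the knockout sum was Dcn, a matrix proteoglycan gene, with 1421, 2110 and 1343 CPM in knockouts against 3.95, 317 and 6.96 CPM in controls. The other 7 fibroblast markers summed to 521, 754 and 301 CPM in knockouts, against 403, 11990 and 1086 CPM in controls. For 11 pericyte and smooth muscle markers it was 782 to 1576 CPM in knockouts, and 477, 4302 and 592 CPM in the controls. Of these, Acta2 alone had 652, 1131 and 522 CPM in knockouts against 379, 3049 and 462 CPM in controls, and the other 10 summed to 317, 445 and 260 CPM in knockouts against 98.1, 1252 and 130 CPM in controls. Leukocyte, neural and epithelial marker sets summed to at most 4.44, 6.64 and 3.40 CPM in any library, with Tyrobp, Olig1 and Ttr at 0 counts throughout. Control 2 thus had the lowest endothelial and the highest fibroblast and mural sums of the controls, and the part of this in the results was not tested. Calls for the 10 junction genes, and counts in the lists of other junction genes, are given with and without it. Many single genes of those lists, and the endothelial marker calls, are given with all libraries only. In whole populations such as these, fewer cells of a type and less RNA per cell cannot be told apart. Erg had 70.2, 88.3 and 109 CPM in knockouts against 656, 223 and 610 CPM in controls (log2 fold change -2.48, SE 0.44, edgeR adjusted p = 0.0137). Fli1 had 57.0, 68.5 and 66.7 CPM in knockouts against 82.9, 64.1 and 92.1 CPM in controls, and its change did not pass the test (log2 fold change -0.32, edgeR adjusted p = 0.181). The labels do not say which exons were deleted, and transcripts that keep the other exons of either gene would still be counted.

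Of the 10 genes, 5 fell in the knockout (Cdh5, Pecam1, Cdh13, Jup and Esam), 1 rose (Ctnnd1) and 4 did not pass the test (Cdh2, Ctnnb1, Ctnna1 and F11r). The threshold was an adjusted p of 0.05 in edgeR's quasi-likelihood test, with the adjustment made over all genes tested. By that rule 24.7% of all tested genes were called, 11.7% lower and 13.1% higher. Higher genes made up 52.8% of these calls. With libraries scaled by their size alone they made up 66.4% of the calls, 27.1% of all genes were called and 9.12% were lower, and 4 of the 10 junction genes were lower, Esam having lost its call. DESeq2 called the same 6 and Ctnna1, which was lower, where 31.5% of all genes were called and 16.5% were lower. limma voom called 4 lower, without Esam, and 1 higher, where 10.7% of all genes were lower and 14.1% higher. The median log2 fold change was -0.93 over the 10 genes and 0.003 over all genes tested. Without control 2 all 10 were called, 8 lower and 2 higher (Cdh2 and Ctnnd1), where 50.3% of all genes were called, 24.8% lower and 25.5% higher. Groups did not overlap for 7 of the 10 genes, 6 lower and 1 higher, against 46.3% of all genes tested, 21.3% lower and 25.0% higher.

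**Figure D1:**
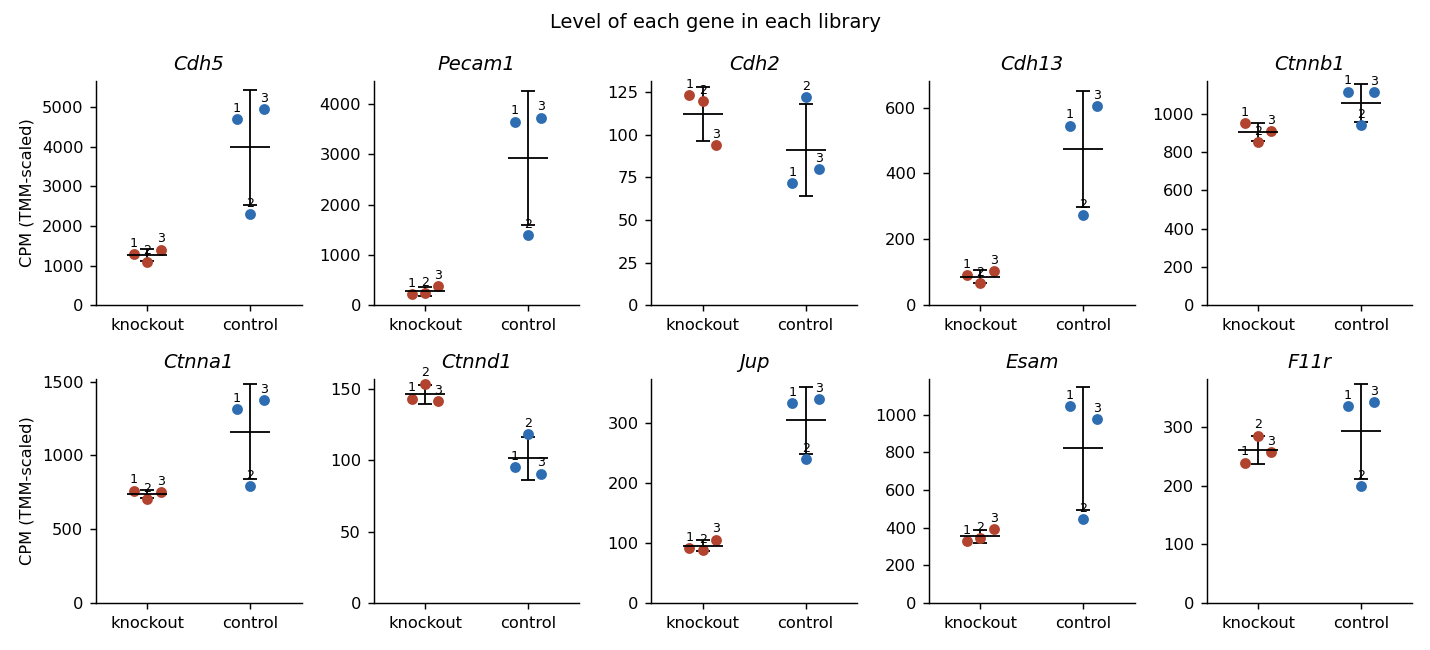
CPM (y axes, from 0) of each of the 10 genes in each library, knockout at left and control at right. Points are libraries labelled by replicate number, and lines are means with SD (n = 3 per group). Control 2 is the lowest control point in 8 of the 10 panels and the highest in the panels of Cdh2 and Ctnnd1.

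The transcripts of both sort markers were lower in the knockout, and that of CD31 more than that of VE-cadherin. Pecam1 (ENSMUSG00000020717; GRCm38 chromosome 11, 106654217 to 106750628, minus strand) had 219, 239 and 376 CPM in knockouts 1, 2 and 3, against 3655, 1389 and 3736 CPM in controls 1, 2 and 3. Every knockout library lay below every control, and the highest knockout was still well under control 2. The knockout mean was 9.49% of the control mean (log2 fold change -3.40, SE 0.47, edgeR adjusted p = 0.00665). Cdh5 (ENSMUSG00000031871; chromosome 8, 104101625 to 104144511, plus strand) had 1299, 1104 and 1406 CPM in knockouts, against 4693, 2306 and 4957 CPM in controls. These groups also did not overlap, and the knockout mean was 31.9% of the control mean (log2 fold change -1.65, SE 0.32, edgeR adjusted p = 0.0168). The call for Pecam1 held when any 1 library was left out (edgeR adjusted p up to 0.0434). That for Cdh5 held without control 2 (edgeR adjusted p = 1.657e-05, log2 fold change -1.96) but was lost without control 1, control 3 or any 1 knockout library (edgeR adjusted p 0.0571 to 0.0823).

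Within each library, Pecam1 CPM was 0.169, 0.216 and 0.267 of Cdh5 CPM in knockouts, against 0.779, 0.602 and 0.754 in controls. This ratio does not depend on how libraries are scaled, and its groups did not overlap. It differed by -1.73 on the log2 scale between knockouts and controls (exact two-sided permutation test p = 0.1, the smallest that 3 against 3 libraries allow). Control 2, in which both transcripts were lower than in the other controls, kept a ratio of 0.602. The cells had been sorted for the presence of both proteins, and the purity of the sort was not measured here.

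Of the other cadherin genes, Cdh13 fell and Cdh2 did not pass the test. Cdh13 (ENSMUSG00000031841; chromosome 8, 118283733 to 119324921, plus strand) encodes T-cadherin, which is held in the membrane by a lipid anchor and has no catenin-binding tail. It had 91.5, 66.7 and 103 CPM in knockouts, against 546, 274 and 605 CPM in controls, with no overlap. The knockout mean was 18.3% of the control mean (log2 fold change -2.45, SE 0.34, edgeR adjusted p = 0.00708), and the call held with any 1 library left out. Cdh2 (ENSMUSG00000024304; chromosome 18, 16588877 to 16809246, minus strand) encodes N-cadherin, a classical cadherin that endothelial cells share with mural cells and fibroblasts. It had 123, 120 and 93.8 CPM in knockouts, against 71.5, 122 and 79.9 CPM in controls. Only control 2 reached the knockout range, and the change did not pass the test (log2 fold change 0.30, SE 0.23, edgeR adjusted p = 0.377). Leaving out control 2, the library with the highest fibroblast and mural sums, gave Cdh2 a log2 fold change of 0.53 (edgeR adjusted p = 0.00906). The mural sum, with or without Acta2, was also higher in every knockout than in controls 1 and 3. The fibroblast sum was so only with Dcn, since without it control 3 exceeded every knockout. Of 7 fibroblast markers tested, 1 was called higher (Pdgfra) and 0 lower, where 24.7% of all genes were called. Without control 2, 4 were higher (Dcn, Lum, Pdgfra and Fbln1) and 1 lower (Col1a1), where 50.3% of all genes were called. In knockouts Pdgfrb was the largest part of the mural sum without Acta2. It had 189, 173 and 163 CPM there, against 20.2, 420 and 40.5 CPM in controls 1, 2 and 3. Of the 11 mural markers, 0 were called higher and 1 lower (Abcc9), where 24.7% of all genes were called. Without control 2, 3 were higher and 1 lower, where 50.3% of all genes were called. The part of either sum in the Cdh2 values was not tested.

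Measured per length (CPM per kilobase of exon), Cdh5 held 93.0%, 92.7% and 94.2% of the summed level of the 3 cadherins in knockouts, against 95.1%, 93.3% and 94.9% in controls. The groups overlapped, and the difference of -1.16 percentage points did not pass the test (exact two-sided permutation test p = 0.2). Cdh2 took 4.6%, 5.23% and 3.27% of that sum in knockouts, against 0.755%, 2.57% and 0.796% in controls. Cdh13 took 2.45%, 2.10% and 2.58% in knockouts, against 4.14%, 4.15% and 4.33% in controls. Cdh5 remained the most abundant of the 3 in every library, while the order of the other two was reversed between the groups. With the 31 further cadherin and protocadherin genes examined added to the sum, the Cdh5 share was 61.7%, 59.2% and 64.3% in knockouts, against 82.5%, 64.0% and 82.0% in controls. Here too the groups overlapped, and the difference of -14.5 percentage points did not pass (exact two-sided permutation test p = 0.2).

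Among the tail-binding catenins, plakoglobin fell while beta-catenin did not pass the test. Jup (ENSMUSG00000001552; chromosome 11, 100368958 to 100397763, minus strand) had 91.7, 87.7 and 105 CPM in knockouts, against 333, 240 and 339 CPM in controls. Even control 2 was more than 2-fold above the highest knockout. The knockout mean was 31.2% of the control mean (log2 fold change -1.68, SE 0.16, edgeR adjusted p = 0.00266), the smallest adjusted p among the 10 genes, and it stayed at most 0.0222 with any 1 library left out. Ctnnb1 (ENSMUSG00000006932; chromosome 9, 120929216 to 120960507, plus strand) had 950, 854 and 908 CPM in knockouts, against 1116, 940 and 1112 CPM in controls. Control 2 lay inside the knockout range (log2 fold change -0.22, SE 0.11, edgeR adjusted p = 0.176); leaving it out gave a log2 fold change of -0.34 (edgeR adjusted p = 0.00431). Exons of Ulk4 on the opposite strand cover 14.6% of the Ctnnb1 exons, so part of its counts is uncertain. Per length, Jup stood at 0.0779, 0.0829 and 0.0934 of Ctnnb1 in knockouts, against 0.241, 0.206 and 0.246 in controls. This ratio differed by -1.45 on the log2 scale without overlap (exact two-sided permutation test p = 0.1, the smallest possible).

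Of the catenins that do not compete for that site, Ctnnd1 rose and Ctnna1 did not pass the test. Ctnna1 (ENSMUSG00000037815; chromosome 18, 35118859 to 35254779, plus strand) had 761, 705 and 751 CPM in knockouts, against 1313, 792 and 1377 CPM in controls. The groups did not overlap, but control 2 was close to the knockouts and the change did not pass in edgeR (log2 fold change -0.65, SE 0.22, adjusted p = 0.0830). It passed in DESeq2 (adjusted p = 0.0156) and in edgeR without control 2 (log2 fold change -0.90, adjusted p = 3.664e-05). Ctnnd1 (ENSMUSG00000034101; chromosome 2, 84600071 to 84650765, minus strand) had 143, 154 and 141 CPM in knockouts, against 94.8, 118 and 90.6 CPM in controls. All knockouts lay above all controls, and the knockout mean was 144% of the control mean (log2 fold change 0.53, SE 0.11, edgeR adjusted p = 0.0239). This call was lost without control 1, control 3 or any 1 knockout library (edgeR adjusted p 0.0665 to 0.0931). The level of Ctnnd1 is uncertain, because exons of Gm28635, an overlapping gene model on the same strand with 0 counts in every library, cover 61.2% of its exons. Reads from the shared exons may not have been counted for either gene.

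Of the other immunoglobulin-type genes, Esam fell and F11r did not pass the test. Esam (ENSMUSG00000001946; chromosome 9, 37528078 to 37538319, plus strand) had 328, 342 and 392 CPM in knockouts, against 1044, 445 and 975 CPM in controls. The groups did not overlap, but control 2 was near the knockouts (log2 fold change -1.21, SE 0.33, edgeR adjusted p = 0.0455). The Esam call was lost in limma voom (adjusted p = 0.0536) and in edgeR without control 1, control 3 or any 1 knockout library (adjusted p 0.119 to 0.149), and without control 2 its log2 fold change was -1.55. F11r (ENSMUSG00000038235; chromosome 1, 171437535 to 171464603, plus strand) had 240, 286 and 258 CPM in knockouts, against 336, 199 and 344 CPM in controls. Control 2 lay below the knockouts and the other controls above them. The change of F11r did not pass the test (log2 fold change -0.17, SE 0.22, edgeR adjusted p = 0.622), though it was -0.41 without control 2 (edgeR adjusted p = 0.00378).

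**Figure D2:**
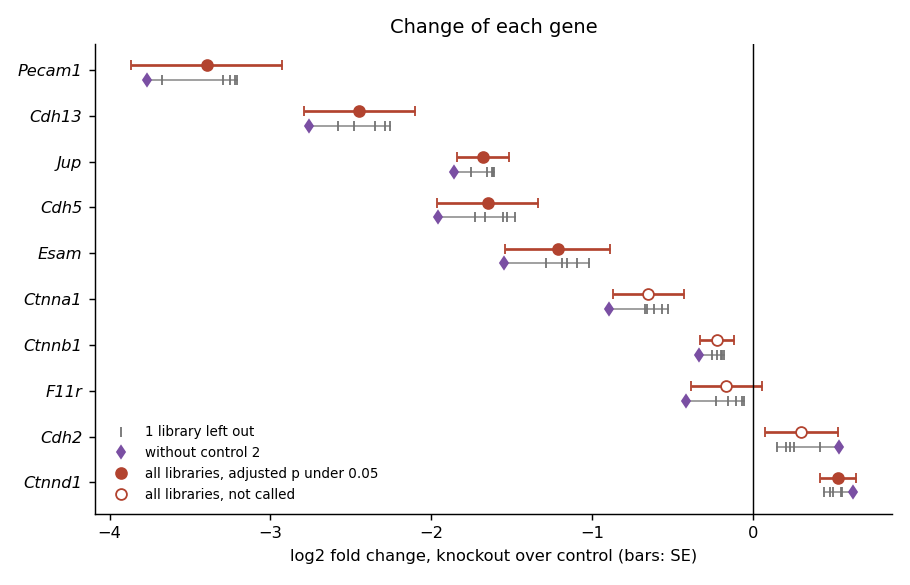
log2 fold change (x axis, knockout over control) of each gene, ordered from the largest decrease at the top. Circles with SE bars are the fit to all libraries (filled where called), grey ticks leave out 1 library each, and diamonds mark the fit without control 2, which lies farthest from 0 for every gene.

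The libraries also differed in the sex of the cells. Xist, transcribed from the inactive X chromosome, had 442 and 595 CPM of unscaled library size in knockouts 2 and 3 and 592 in control 2, and at most 5.2 in knockout 1 and controls 1 and 3. Control 2 is therefore the only female control, and its sex and its other differences cannot be told apart. With sex as a term in edgeR, 18.9% of all genes were called, 8.18% lower and 10.7% higher, and of the 6 called junction genes only Esam lost its call (adjusted p = 0.120). Between the 2 female knockouts and the female control, the log2 difference in CPM was -0.89 for Cdh5, -2.21 for Pecam1, -1.72 for Cdh13, -1.32 for Jup, -0.28 for Esam and 0.32 for Ctnnd1. Between the male knockout and the 2 male controls, it was -1.89, -4.08, -2.65, -1.87, -1.62 and 0.63 in the same order. These comparisons hold too few libraries for a test. F11r differed in sign, at 0.45 in female and -0.50 in male libraries, as did Cdh2, at -0.20 and 0.71.

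Set against Cdh5 within each library, the junction genes differed in direction. This measure was chosen after the values had been seen. Cdh5 itself fell without overlap, so a gene that did not change, or fell less than Cdh5, is raised in knockouts by this measure. The share of all genes that separate in this way was not computed. Jup did not separate by group, at 7.06%, 7.94% and 7.48% of Cdh5 CPM in knockouts and 7.09%, 10.4% and 6.84% in controls (exact two-sided permutation test p = 0.9). Cdh13 stood at 7.04%, 6.04% and 7.31% of Cdh5 in knockouts and 11.6%, 11.9% and 12.2% in controls. Its 3 control values lay within 0.6 points of each other although control 2 had less than 50% of the Cdh5 of the other controls. Esam was higher relative to Cdh5, at 25.2%, 31.0% and 27.8% in knockouts and 22.2%, 19.3% and 19.7% in controls. F11r was at 18.5%, 25.9% and 18.3% in knockouts and 7.16%, 8.63% and 6.93% in controls. Ctnna1 was at 53.4% to 63.8% in knockouts and 27.8% to 34.3% in controls, and Ctnnb1 at 64.6% to 77.3% and 22.4% to 40.8%. Ctnnd1 and Cdh2 were 4.33-fold and 3.75-fold higher relative to Cdh5 in knockouts. Of the 9 ratios, 8 had no overlap between groups, 6 higher and 2 lower in knockouts, each with an exact two-sided permutation p = 0.1, or 0.113 after Benjamini-Hochberg adjustment over the 9.

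**Figure D3:**
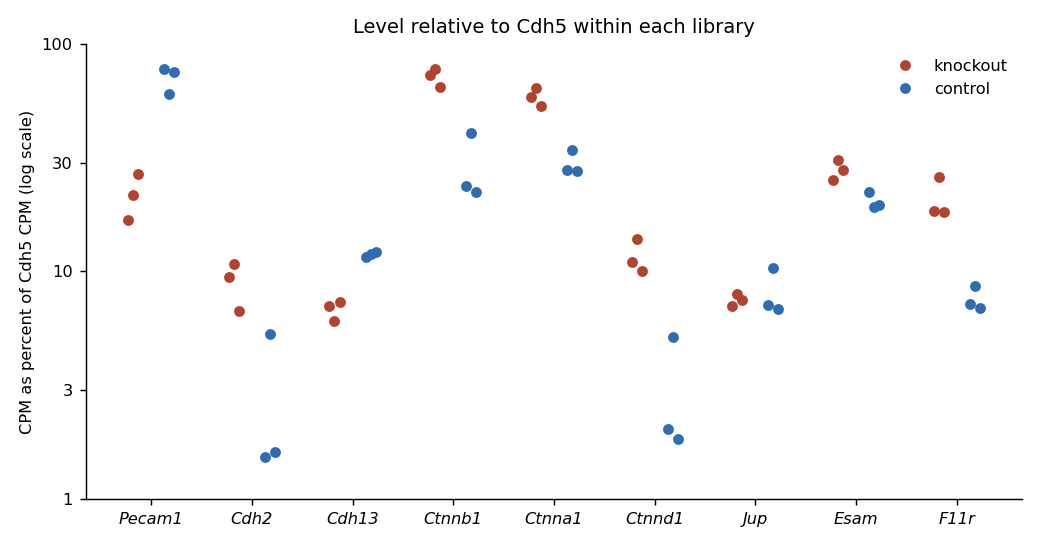
CPM of each of 9 genes as a percentage of Cdh5 CPM in the same library (y axis, log scale), with 3 knockout libraries left of 3 control libraries for each gene. Pecam1 and Cdh13 are lower in all knockouts, Jup overlaps between the groups, and the other 6 genes are higher in all knockouts.

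The order of the 10 transcripts differed between the groups. Per kilobase of exon, Cdh5 came first in both, at 302 ± 36.4 CPM per kilobase in knockouts and 948 ± 347 in controls (SD, n = 3 each). Pecam1 was 6th in knockouts, at 44.6 ± 13.7 CPM per kilobase, and 2nd in controls, at 470 ± 214. Ctnnb1, at 174 ± 9.26 in knockouts and 203 ± 19.4 in controls, was 2nd and 4th. In knockouts the order continued with Esam (123 ± 11.7), Ctnna1 (115 ± 4.65) and F11r (98.1 ± 8.74), followed after Pecam1 by Ctnnd1 (19.3 to 21.0 across libraries), Jup (14.7 ± 1.42), Cdh2 (13.9 ± 1.99) and Cdh13 (7.75 ± 1.65). Only Esam and Ctnna1, and Jup and Cdh2, had overlapping ranges among neighbours in that order. In controls the order after Pecam1 was Esam (286 ± 114), Ctnnb1, Ctnna1 (181, from 123 to 214 across libraries), F11r (110 ± 30.6), Jup (47.2 ± 8.64), Cdh13 (42.3 ± 15.7), Ctnnd1 (13.8 ± 2.05) and Cdh2 (11.3 ± 3.35). There, most neighbours overlapped, with control 2 the lowest or highest value of each gene, and only F11r and Jup, and Cdh13 and Ctnnd1, had separate ranges. The per-length level of Ctnnd1 carries the uncertainty of its shared exons.

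**Figure D4:**
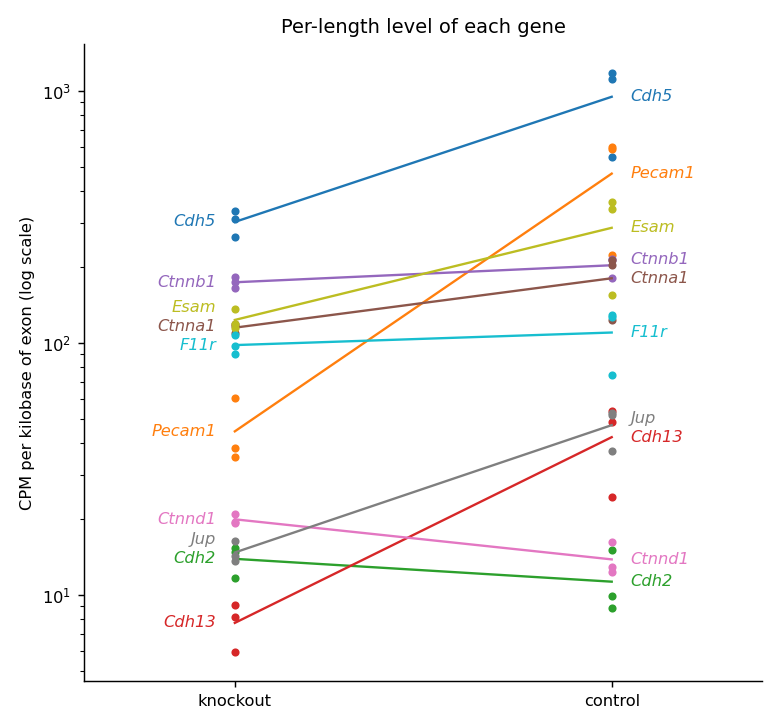
Per-length level (CPM per kilobase of exon, log scale) of each gene in knockout libraries at left and control libraries at right. Points are single libraries and lines join group means, with names moved slightly where they would collide. Pecam1, Cdh13, Jup, Cdh5 and Esam have the steepest lines, and Ctnnd1 and Cdh2 have lower means in controls.

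Among other cadherin genes, 3 fell and 2 rose of 20 tested (31 listed), with a median log2 fold change of -0.41. That is 5 calls in 20, near the 24.7% of all genes called. Pcdh12, encoding the endothelial protocadherin also called VE-cadherin-2, had 3.19, 3.63 and 9.58 CPM in knockouts, against 60.4, 34.1 and 70.4 CPM in controls (log2 fold change -3.33, SE 0.53, edgeR adjusted p = 0.00991; 0.0526 without knockout 2). Pcdh7, another protocadherin gene, rose to 862, 933 and 864 CPM in knockouts, against 203, 237 and 216 CPM in controls (log2 fold change 2.02, SE 0.09, edgeR adjusted p = 4.574e-04). Control 2 lay close to the other controls for Pcdh7. However, exons of an opposite-strand gene cover 21.1% of its exons. Cdh26 rose to 14.7 ± 2.29 CPM in knockouts, against 2.94 ± 1.84 CPM in controls (SD, n = 3 each), a call lost without control 1, control 3 or any 1 knockout library (edgeR adjusted p up to 0.113). The other called genes were Pcdh1 and Dchs1, both lower, named after their values were seen. Dchs1 did not pass with any single library other than control 2 left out (edgeR adjusted p up to 0.129), nor with the sex term (adjusted p = 0.0803). Cdh1, the cadherin gene of epithelia and also named after its values were seen, had at most 0.335 CPM in any library and was not tested. Without control 2, 7 of these genes were higher and 5 lower of 21 tested, where 50.3% of all genes were called.

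Among other catenins, plakophilins and actin linkers, 3 rose and 1 fell of 18 tested (20 listed; median log2 fold change 0.02). These 4 calls in 18 stand beside 24.7% of all genes called. Pkp4, a p120-related gene, rose to 75.8 ± 6.84 CPM in knockouts, against 47.3 ± 2.65 CPM in controls (SD, n = 3 each; log2 fold change 0.68, edgeR adjusted p = 0.00586). Plekha7, whose protein binds p120-catenin at junctions, rose to 7.30 ± 1.68 CPM in knockouts, against 3.85 ± 0.409 CPM in controls. Ctnnbip1, encoding an inhibitor of beta-catenin and TCF binding, fell to 20.9 ± 0.333 CPM in knockouts, against 45.0 ± 17.4 CPM in controls (log2 fold change -1.11, edgeR adjusted p = 0.0495). Calls for Plekha7 and Ctnnbip1 were lost without control 1, control 3 or any 1 knockout library, and opposite-strand exons cover 25.8% of those of Ctnnbip1. Pkp3 also rose, named after its values were seen, but did not pass when control 3, knockout 2 or knockout 3 was left out (adjusted p in edgeR up to 0.0641). Without control 2, 8 of the 18 were higher and 6 lower, where 25.5% of all genes were higher and 24.8% lower.

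Of 27 tested partners and regulators of VE-cadherin (28 listed), 9 fell and 3 rose, with a median log2 fold change of -0.10, and 12 were lower and 6 higher without control 2. Over all genes tested, 11.7% were lower and 13.1% higher, and 24.8% and 25.5% without control 2. Rasip1, whose protein works with Rap1 in vessel tube formation, had 1.75, 4.41 and 11.3 CPM in knockouts, against 110, 64.8 and 109 CPM in controls (log2 fold change -4.02, SE 0.70, edgeR adjusted p = 0.0127; 0.0682 without knockout 2). Other genes share 20.4% of its exons on the same strand and 22.5% on the opposite one, so its counts are uncertain. Arhgap29, a RhoA-inactivating partner of Rasip1, fell to 268 ± 28.3 CPM in knockouts, against 851 ± 251 CPM in controls. Tek, encoding the receptor TIE2, had 22.3, 24.7 and 32.8 CPM in knockouts, against 114, 116 and 118 CPM in controls (log2 fold change -2.12, SE 0.15, edgeR adjusted p = 0.00145). Control 2 lay between the other controls for Tek. The receptor phosphatase genes differed in direction, all named after their values were seen: Ptprm fell and Ptprj rose. Ptprm lost its call without control 3 or any 1 knockout library (edgeR adjusted p up to 0.0670). Ptprb, encoding the VE-cadherin phosphatase VE-PTP, had 998, 1105 and 1104 CPM in knockouts, against 739, 260 and 638 CPM in controls, without passing the test (edgeR adjusted p = 0.118). It passed in DESeq2 (adjusted p = 0.0400) and in edgeR without control 2 (adjusted p = 0.00123, log2 fold change 0.60). The angiomotin-like genes, likewise named after their values were seen, also differed in direction, with Amotl2 at 769, 751 and 760 CPM in knockouts against 407, 420 and 340 CPM in controls, and Amotl1 at 186, 185 and 183 CPM in knockouts against 290, 264 and 306 CPM in controls. Both passed the test (edgeR adjusted p = 0.00342 and 0.00443).

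In the 12 other immunoglobulin-type adhesion genes, 3 fell and 1 rose (median log2 fold change -0.86), and without control 2, 5 were lower and 2 higher. The share of all genes called was 24.7%, and 50.3% without control 2. Icam2, a constitutive endothelial adhesion gene, fell to 16.1, 16.3 and 20.6 CPM in knockouts, against 139, 74.2 and 145 CPM in controls (log2 fold change -2.76, SE 0.29, edgeR adjusted p = 0.00342). Cxadr, encoding the coxsackievirus and adenovirus receptor of epithelial tight junctions, rose to 19.5, 20.6 and 15.8 CPM in knockouts, against 1.95, 5.12 and 3.40 CPM in controls (log2 fold change 2.42, SE 0.36, edgeR adjusted p = 0.00808). Opposite-strand exons cover 9.46% of its exons. Ncam1, a neural cell adhesion gene, had 16.6 ± 1.94 CPM in knockouts against 44.6 ± 19.3 CPM in controls (SD, n = 3 each; log2 fold change -1.42, edgeR adjusted p = 0.0244), and lost its call without any 1 knockout library. Mcam also fell, named after its values were seen.

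**Figure D5:**
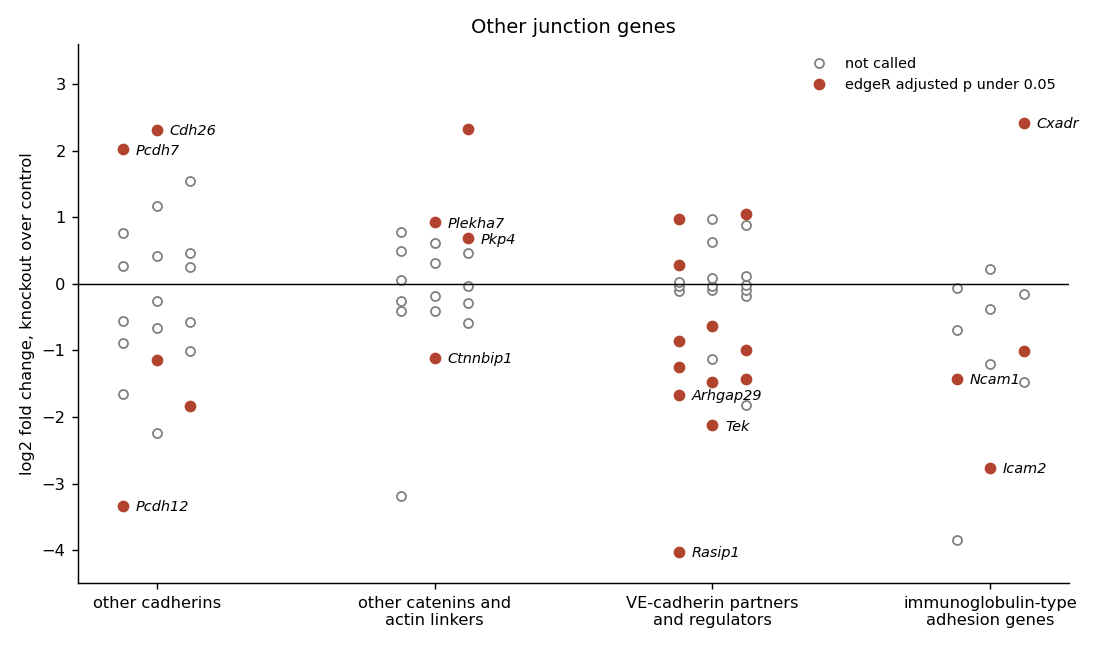
log2 fold change (y axis, knockout over control) of each tested gene in 4 lists of other junction genes, filled where edgeR's adjusted p was under 0.05. In the list of VE-cadherin partners and regulators, 9 filled points lie below 0 and 3 above; points are spread sideways only for legibility.

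The genes whose levels followed Cdh5 and Pecam1 most closely over the 6 libraries were ranked by Pearson's r of log2 CPM among 9101 genes with at least 10 CPM on average. For Cdh5 these were Rsl24d1, Ptprm, Arhgap31, Hspa12b and Cr1l, with r of 0.998 to 0.999. For Pecam1 they were Tie1, Shroom4, Rflnb, Lpin3 and Fgd5, with r of 0.999 to 1.00. In total 156 genes reached an r of 0.99 with Cdh5 and 170 with Pecam1. The coefficient ignores the size of a change: Rsl24d1 had 21.8 ± 0.367 CPM in knockouts against 26.0 ± 1.49 CPM in controls and was not called (edgeR adjusted p = 0.0590), while Hspa12b had 38.3 ± 7.43 CPM in knockouts against 272 ± 137 CPM in controls (SD, n = 3 each). Tie1, an endothelial receptor gene, had 134, 136 and 182 CPM in knockouts against 854, 440 and 857 CPM in controls. Among the junction genes themselves, Ctnnd1 ran opposite to Cdh5 (r = -0.999) and so did Cdh2 (r = -0.805). Of the genes with a positive coefficient, F11r had the lowest (r = 0.567). All of these points share the difference between the groups and the low level of control 2, so they are a description of 6 libraries.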

How the data were processed

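The authors deposited raw counts per gene for 52636 Ensembl gene identifiers in 6 libraries, which entered the tests unchanged. FastQC 0.11.5, STAR 2.7.6a and the build GRCm38 are named in the submitters' processing notes; for the counting program, strand setting and annotation, the sources used here give no name. Per the labels' protocols, libraries of polyadenylated RNA were made with either of 2 TruSeq kits, only 1 of which keeps strand, without saying which library had which kit. All rows of the table named a gene.

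Symbols, positions, merged exon lengths and exon overlaps came from GENCODE M21 (GRCm38), which matched 52489 identifiers. Of the 50-base sequences of each junction gene, 56.7% for Ctnnd1 and at most 0.998% for the others were shared with another gene's transcripts. Groups and replicate numbers came from sample titles. Counts were fitted in R 4.3.3 with edgeR 4.0.16 (filterByExpr, TMM, glmQLFit and glmQLFTest, two-sided, no covariate) and adjusted by the Benjamini-Hochberg method over all 13901 genes, after the fit had been tested on simulated counts with known changes. SEs were derived from each log2 fold change and its F statistic. Single ratios were compared by exact permutation with SciPy 1.17.1. All pairs of libraries differed by more than sampling noise, so none was a copy of another and each counted as 1 sample. That does not show that every library came from a separate culture. Log2 CPM correlated at 0.9915 between controls 1 and 3, and at 0.9213 and 0.9351 between control 2 and these. Between control 2 and the knockouts it correlated at 0.9067 to 0.9195.

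Alternatives were other scalings, DESeq2 1.42.0, limma voom (limma 3.58.1), other filters and thresholds, a replicate block, a sex term and each library left out. Genes named were the 10 junction genes, Erg and Fli1, the 3 called genes with the largest change and at least 5 CPM in each list, and the 5 genes most like Cdh5 and Pecam1. Other genes, such as Cdh1, Amotl1 and Amotl2, were named after their values were seen. Genes, lists and tests were chosen with earlier results of these data known.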

Additional observations from a re-analysis of the deposited data

How the results depend on the processing

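Over 17 alternative fits, Pecam1, Cdh13 and Jup kept their calls in every one, whereas Cdh5 and Ctnnd1 lost theirs in 7 and Esam in 11. At an adjusted p under 0.01 the 10 junction genes held 3 lower and 0 higher calls. Against a 1.5-fold change they also held 3 and 0. Under these settings the 4 wider lists together held 9 lower and 5 higher, and 7 and 4, against 16 and 9 otherwise. The share of all genes called under these settings was not counted. The single higher call, Ctnnd1, had an unadjusted edgeR p of 0.00382 and was higher in DESeq2 and limma voom. With 1 library left out, the junction genes held 3 to 8 lower and 0 to 2 higher calls. The wider lists held 8 to 28 lower and 5 to 23 higher. All upper values came without control 2, where 24.8% of all genes were lower and 25.5% higher. For the other left-out fits the share of all genes called was not counted. Left-out values of the Pecam1 to Cdh5 ratio were -1.89 to -1.56 (log2), of the Jup to Ctnnb1 ratio -1.52 to -1.39, and of the Cdh5 share -1.73 to -0.816 percentage points. The replicate block gave 4 lower calls, Esam losing its own (edgeR adjusted p = 0.0848). Deviations from the group means correlated at -0.174, 0.161 and 0.254 between same-numbered libraries. With 3 libraries per group and control 2 apart from the other controls, these values cannot decide whether the numbers pair the samples. With so few libraries no exact test of a ratio could fall below 0.1.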

Other observations

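Several cadherin genes outside the 10 stood highest in control 2, the library with the highest fibroblast and mural marker sums; this choice was made from the values themselves. Cdh11, a cadherin gene of mesenchymal cells, had 88.2, 42.5 and 49.9 CPM in knockouts, against 37.6, 736 and 76.3 CPM in controls 1, 2 and 3. Its log2 fold change was -2.23 with all libraries (edgeR adjusted p = 0.209) and 0.05 without control 2. Cdh6 had 3.85, 2.18 and 1.28 CPM in knockouts, against 2.69, 17.2 and 3.40 CPM in controls. Fat1, a giant atypical cadherin gene, had 336, 290 and 227 CPM in knockouts, against 94.8, 792 and 138 CPM in controls. Pcdh18 had 27.5, 25.3 and 23.8 CPM in knockouts, against 2.74, 46.3 and 6.52 CPM in controls. For Fat1 and Pcdh18 every knockout lay between control 2 and the other controls.

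Knockout 3 had the highest Erg level of the knockouts, at 109 CPM against 70.2 and 88.3 CPM. It also had the highest level of 5 of the 10 junction genes: Cdh5, Pecam1, Cdh13, Jup and Esam, the 5 that fell. Below it the order differed between genes. Knockout 1 had the lowest Erg, Pecam1 and Esam, but knockout 2 had the lowest Cdh5, Cdh13 and Jup. The summed level of the 13 endothelial markers was likewise highest in knockout 3, at 2955 CPM against 2493 and 2487 CPM. The pattern is thus not particular to the junction genes. Its relation to Erg was not tested, since it rests on 3 libraries.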
